A study of Mus musculus with 40 samples.

Results

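Genes of the pre-mRNA splicing machinery were followed through mouse liver regeneration at 2 ages, with and without the agent that the labels call ATRi. The members are the entries whose symbol begins with Srsf, Hnrnp, Snrp, Sf3a, Sf3b, U2af, Prpf, Lsm or Rbm (for Srsf, Prpf, Lsm and Rbm followed by a digit). These were 98 of the 11119 genes measured. They comprised 10 SR proteins (Srsf), 15 hnRNP proteins (Hnrnp), 8 Sm and other snRNP proteins (Snrp), 9 proteins of the U2 particle and its loading factor (Sf3a, Sf3b and U2af), 13 Prpf proteins, 12 Lsm proteins and 31 Rbm proteins.

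The spliceosome is assembled on each intron from small nuclear ribonucleoproteins (snRNPs), each an RNA held by a ring of Sm or Lsm proteins together with proteins of its own, and from helper proteins such as those named Prpf. SR proteins mostly help the machinery to recognise exons, and hnRNP proteins coat the nascent transcript and often oppose them. Rbm is a naming family of proteins with an RNA-binding domain, and only part of it acts in splicing. In the adult liver most hepatocytes rest, and after removal of part of the organ they re-enter the cell cycle together, and the regenerating liver is a common model of synchronous growth in a tissue.

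The samples were polyadenylated RNA of mouse liver, with the cell type labelled as hepatocytes, from 40 samples in 9 groups set by age, by hours after PH (the usual abbreviation of partial hepatectomy) and by ATRi. ATRi, which usually stands for an inhibitor of the DNA damage checkpoint kinase ATR, had been given at 24 h after PH; its dose is not used here. Livers of 3-month mice without ATRi were taken at 0 h (7 mice), 48 h (3 mice) and 72 h (4 mice), and livers of 3-month mice with ATRi at 72 h (4 mice). Livers of 12-month mice without ATRi were taken at 0 h (8 mice), 48 h (3 mice) and 72 h (4 mice), and livers of 12-month mice with ATRi at 48 h (3 mice) and 72 h (4 mice). All groups after 0 h had undergone PH, and the labels give no strain, no vehicle and, beyond wt in the sample names of 3 of the 7 3-month mice at 0 h, no genotype. By their mouse names, all 8 of the 12-month mice sampled at 0 h were sampled again at 72 h, 4 of them with ATRi, and 4 of the 7 3-month mice, 2 of them with ATRi.

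Each level is the log2 of a value that the authors call sigma and that the sources used here do not define, so a difference of levels is on a log2 scale and a level of 1 gene was not ranked against that of another. The tables used here hold 1 mean for each group, and single livers for the 12-month ATRi group at 72 h only (mice M545, M546, M547 and M548). Comparisons between 2 deposited means therefore carry no replicate error and no test: genes were counted where the means differed by 0.5 or more, and the share of all 11119 genes past the same value is given beside each count. For scale, the SD over the 4 livers was 0.217 in the median member (0.054 to 0.868) and 0.233 in the median gene. Read depth is unknown. In 8 members the mean level over the 9 groups was under 1, close to the lowest value of a table (0.049 to 0.393): Snrpb, Srsf6, Srsf7, Srsf12, Lsm4, Lsm5, Rbm20 and Rbm44. Some entries join 2 neighbouring genes, among them Snrpa--BC024978, Sf3b3--Cog4, Prpf39--Fkbp3 and Rbm18--Mrrf, and their reads cannot be told apart. Hepatocyte markers were high in every group (Alb between 14.65 and 16.01), while the Kupffer cell gene Clec4f was also present (6.43 to 7.76), so the samples held other liver cells. In bulk samples, fewer cells of a type and less RNA per cell cannot be told apart.

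Over the whole design the members moved about as much as all genes, with fewer wide ranges. The range of a member over the 9 group means had a median of 0.76, against 0.817 for all genes. It was 1 or more in 28 of the 98 members, against 37.4% of all genes, and under 0.5 in 22, against 19.2% of all genes. Among the steadiest were Rbm19, a factor of ribosomal RNA processing, with a range of 0.21, Prpf31, a protein of the U4/U6 particle, with 0.26, and Hnrnpul1 with 0.28. The widest were Rbm47 with 2.95, Hnrnpa0 with 2.24 and Lsm11 with 2.0. All 9 genes of the U2 particle and its loading factor stayed below a range of 1: the largest was 0.80, in U2af1, the subunit that reads the 3′ end of the intron. The summed level of all 98 members stayed between 11.36 and 11.68 in every group and single liver. It is the log2 of a sum on the linear scale, so the genes with the highest levels weigh most in it.

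At 48 h after PH, when the cell division genes of a marker list stood a median of 3.63 (3 months) and 3.70 (12 months) above 0 h, the genes of the Sm and snRNP proteins were the part of the machinery with the highest median. At 3 months all 8 were above their 0 h level (median difference 0.49), and at 12 months 7 of 8 were (median 0.39). Over all members the medians were 0.04 and 0.13, and over all genes -0.09 and -0.02. Of all genes 39.2% (3 months) and 48.1% (12 months) were above 0 h. Snrpa1, which binds the U2 RNA, went from 5.09 at 0 h to 6.07 at 48 h at 3 months, and from 4.92 to 5.62 at 12 months. Snrpe, a member of the Sm ring, went from 3.0 to 3.58 and from 3.03 to 3.37. Snrpd3, another ring protein, went from 1.66 to 1.98 and from 1.27 to 2.21. Snrpa--BC024978, whose first gene encodes a U1 protein, showed a difference at 3 months (from 4.44 to 5.50) and hardly any at 12 months (from 4.87 to 4.90).

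Counting single genes, 16 of the 98 members were higher by 0.5 or more at 48 h than at 0 h at 3 months (16.3%), against 10.5% of all genes, and 4 were lower (4.1%), against 13.2% of all genes. At 12 months 9 were higher (9.2%), close to the 9.94% of all genes, and 2 were lower (2.0%), against 8.71%. Higher at both ages were 4 members, which is 25% of the 3-month list and 44.4% of the 12-month list; among all genes it was 563, or 48.3% and 51% of their lists. No member was lower by 0.5 at both ages. At 12 months the Kupffer cell and macrophage markers were lower by 0.5 in 8 of 9 (median -0.89, summed level 7.72 at 48 h against 8.60), and at 3 months the sinusoidal endothelial markers were in 7 of 12 (median -0.61); their part was not tested.

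The 4 members higher at both ages come from different parts of the machinery. Hnrnph1, an hnRNP protein that binds G-rich tracts, went from 6.42 to 7.46 at 3 months and from 5.91 to 7.10 at 12 months. Rbm3, known as a cold-inducible RNA-binding protein, went from 5.41 to 6.18 and from 5.20 to 6.06. Lsm8, the subunit that makes the Lsm ring specific for the U6 RNA, went from 4.61 to 5.12 and from 4.39 to 5.31. Snrpa1 is given above. In each of the 4 the 48 h mean was the highest of the 3 times without ATRi, at both ages.

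**Figure D1:**
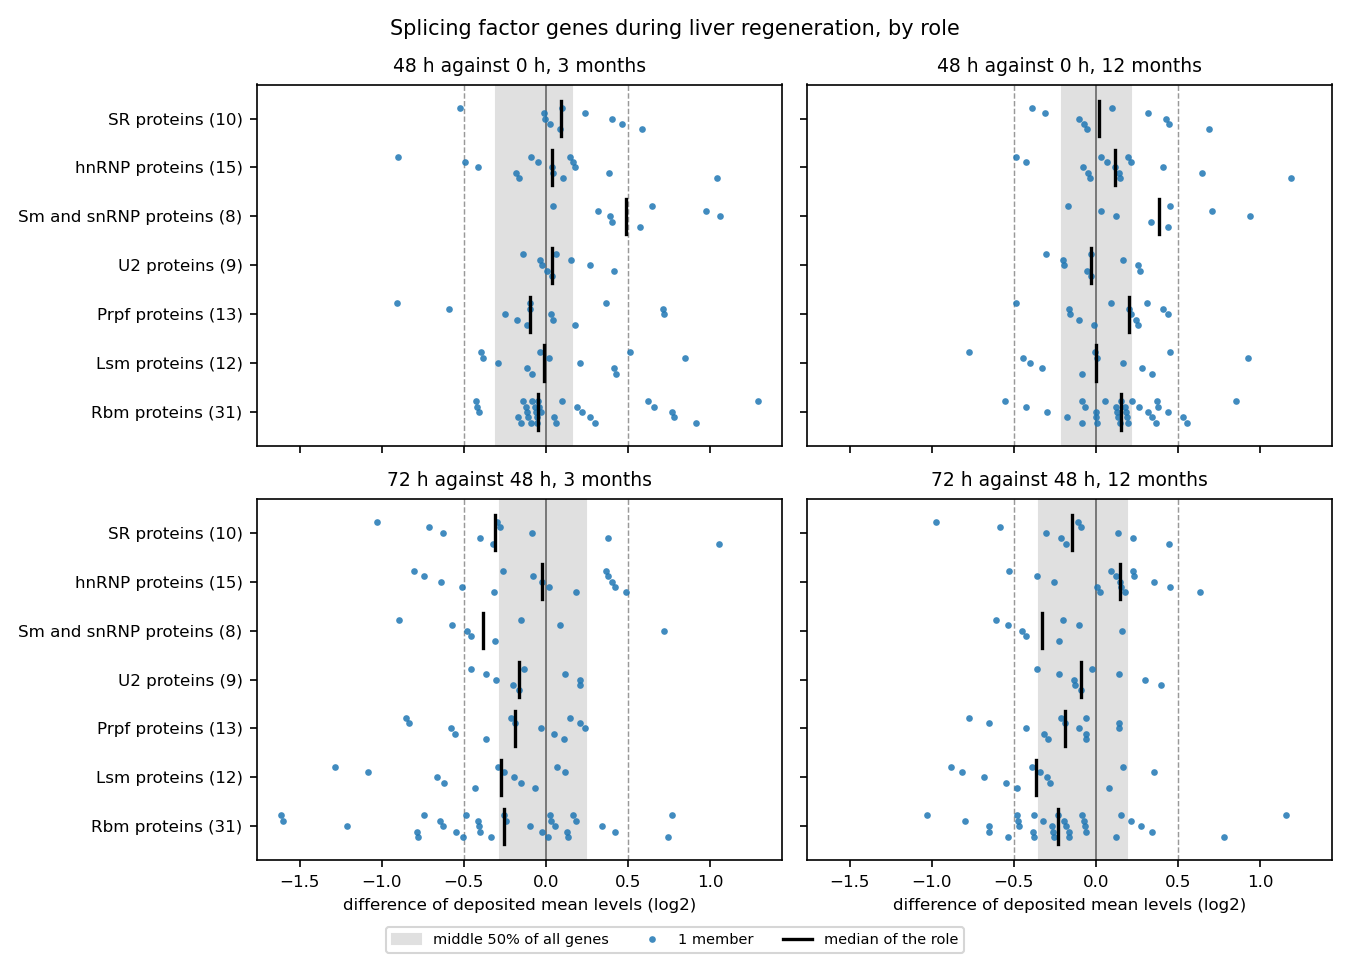
Difference of deposited mean levels (log2, horizontal axis) of each of the 98 splicing factor genes, by role (vertical axis), from 0 h to 48 h and from 48 h to 72 h at 3 and 12 months; points are genes, black bars are the medians of a role, the grey band holds the middle 50% of all 11119 genes and dashed lines mark 0.5. The Sm and snRNP proteins lie to the right of the grey band by their median at 48 h (0.49 and 0.39), and the medians of most roles lie left of 0 from 48 h to 72 h.

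Since several of these genes stood high together at 48 h, RefSeq promoter windows were read for 80 of the 98 members (104 windows, build GRCm38.p6). Motifs were searched in both strands of the 250 bases before each start. The letters CCAAT, the core of the NF-Y box, were present in 47 of the 104 windows (45.2%), against 34.8% of the windows of genes in the tables. The ETS core CCGGAAG was present in 25% against 12.2%, and TGACGT, the core of a cAMP response element, in 17.3% against 9.2%. Of the other motifs searched, E2F sites were present in 7.7% against 2.7% and E-boxes (CACGTG) in 9.6% against 8.1%. Sp1 sites were present in 17.3% against 18.3%, and TATAAA in 8.7% against 7.1%. None of the first 3 motifs contains another, windows of 1 gene can overlap, and a match shows only that the letters are there. Below are stretches before the start of 1 window each of Hnrnph1 (chr11:50376870-50376989, plus strand), with TGACGT on its other strand in capitals as ACGTCA, of Srsf11 (chr3:158031767-158031886, minus strand), an SR-type protein, with CCGGAAG on its other strand in capitals as CTTCCGG, and of Lsm8 (chr6:18848459-18848578, plus strand), with none of the 3. They are shown because these genes are among those whose mean was higher at 48 h than at both 0 h and 72 h at both ages. In Srsf11 the difference from 0 h was under 0.5 (0.09 at 3 and 0.45 at 12 months). Its stretch lies inside the annotated gene (chr3:158010473-158036639), not at the outer 5′ end. Stretches of other Hnrnph1 windows held CCAAT or none of the 3 motifs.
Hnrnph1: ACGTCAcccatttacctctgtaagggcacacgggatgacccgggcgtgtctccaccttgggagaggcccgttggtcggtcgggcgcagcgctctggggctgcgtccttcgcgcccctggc
Srsf11: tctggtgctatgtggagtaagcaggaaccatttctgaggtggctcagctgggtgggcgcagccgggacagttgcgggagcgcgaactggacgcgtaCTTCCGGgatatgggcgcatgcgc
Lsm8: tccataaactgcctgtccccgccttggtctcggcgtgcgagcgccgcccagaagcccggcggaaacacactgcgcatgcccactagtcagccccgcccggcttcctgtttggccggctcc

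Several genes differed at 48 h at 1 age only, and the difference between the ages has no test. Rbm14, a coactivator and paraspeckle protein, went from 4.73 to 6.03 at 3 months and from 5.21 to 5.40 at 12 months. Rbm42 went from 5.20 to 5.86 and from 5.55 to 5.69, and Lsm10, which together with Lsm11 replaces a pair of Sm proteins in the U7 particle of histone mRNA processing, from 3.30 to 4.15 and from 3.60 to 3.61. Prpf38a and Prpf38b, related proteins of the spliceosome before activation, differed by 0.71 and 0.72 at 3 months and by -0.17 and 0.21 at 12 months. Hnrnpa3 (0.39 and 0.64) and Srsf10 (0.40 and 0.69), an SR protein that acts as a repressor when dephosphorylated, were above 0 h at both ages but past 0.5 at 12 months only.

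Against this stood a few genes that were lower by 0.5 or more at 48 h at 3 months, and by less than 0.5 at 12 months. Prpf6, the bridge between the U5 and U4/U6 particles, went from 5.05 to 4.14 at 3 months and from 4.73 to 4.24 at 12 months. Hnrnpd, which binds AU-rich mRNA, went from 5.6 to 4.70 and from 5.28 to 4.79. Both 12-month differences (-0.49) were just short of 0.5. Prpf8, the scaffold at the centre of the spliceosome, went from 6.80 to 6.21 and from 6.26 to 6.10. Srsf5 went from 2.63 to 2.11 and from 2.33 to 1.95. Past 0.5 at 12 months only were Lsm4 (-0.08 at 3 and -0.77 at 12 months), near the lowest values measured, and Rbm12b1 (-0.17 and -0.55).

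**Figure D2:**
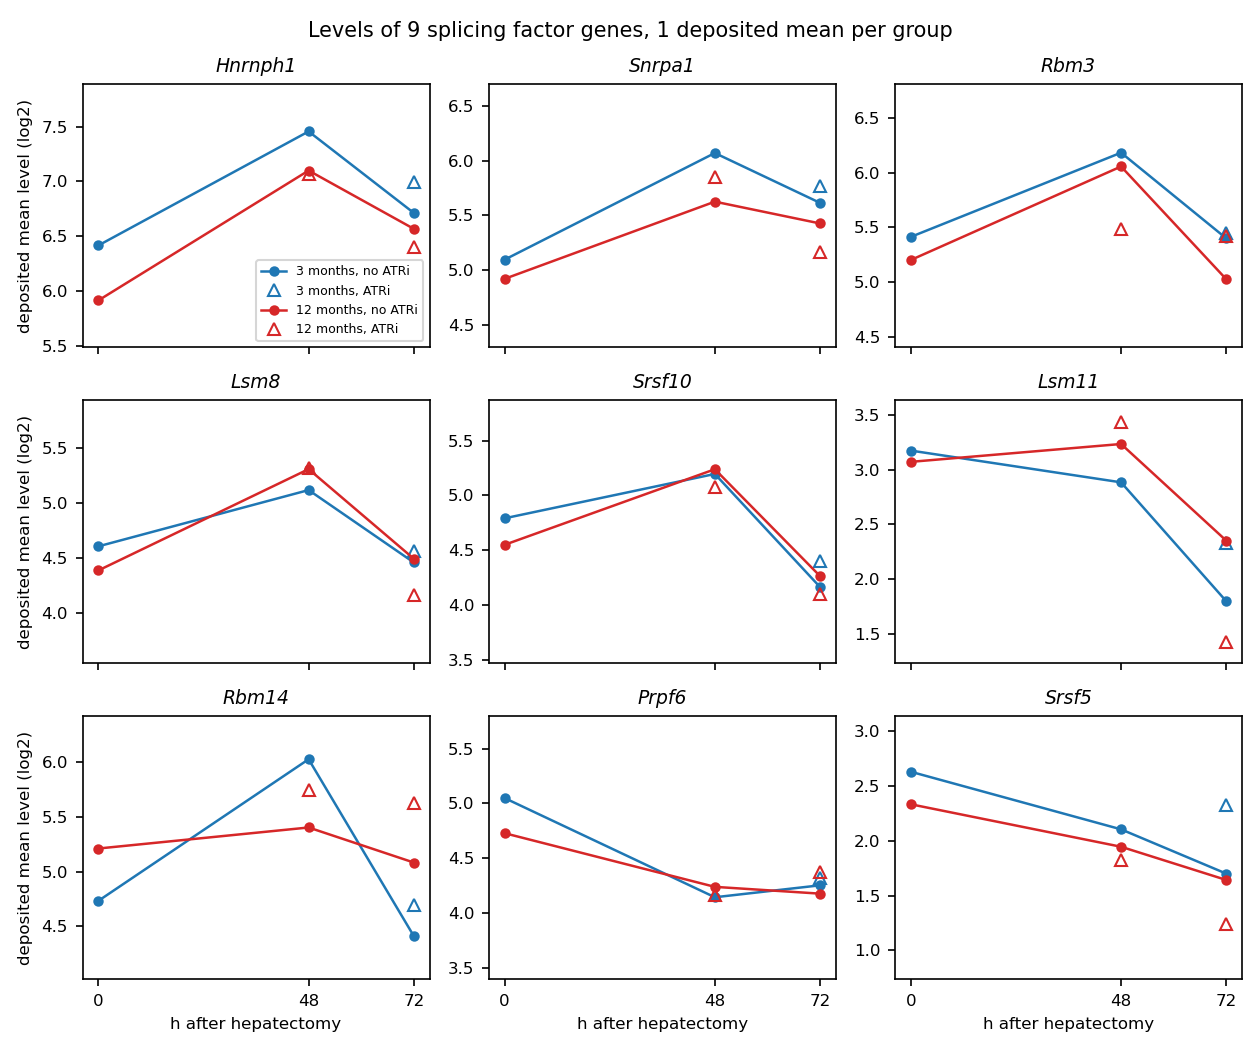
Deposited mean level (log2, vertical axis, same height of scale in each panel) of 9 splicing factor genes by hours after PH (horizontal axis) at 3 months (blue) and 12 months (red); filled circles joined by lines are groups without ATRi, open triangles groups with ATRi, and each point is 1 deposited mean. Hnrnph1, Snrpa1, Rbm3, Lsm8 and Srsf10 are highest at 48 h at both ages, Rbm14 stands out at 48 h at 3 months (6.03), and Prpf6 and Srsf5 are highest at 0 h.

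From 48 h to 72 h more members were lower than higher. At 3 months 27 of the 98 were lower by 0.5 or more (27.6%), against 13.1% of all genes, and 4 were higher (4.1%), against 10.8%. At 12 months 16 were lower (16.3%), against 14.5% of all genes, and 3 were higher (3.1%), against 10.9%. The median difference was -0.25 at 3 months and -0.18 at 12 months, against -0.02 and -0.10 for all genes. Over the same interval all 15 cell division markers were lower at both ages (medians -1.05 and -0.55). At 12 months the Kupffer cell and macrophage markers were higher in 9 of 9 (median 2.06, summed level 7.72 at 48 h and 9.70 at 72 h), neutrophil markers in 7 of 8 (median 1.67) and sinusoidal endothelial markers in 12 of 12 (median 0.60). At 3 months these medians were 0.37, -0.20 and 0.74. The part of these cells in the members' differences was not tested. With differences centred on their median over all genes, 5 members were higher at 12 months.

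Lower by 0.5 at both ages were 10 members: Hnrnph1, Lsm8, Lsm11, Prpf4b, Rbm3, Rbm4, Rbm7, Rbm38, Srsf10 and Srsf11. They are 37% of the 3-month list and 62.5% of the 12-month list, and the 647 genes of the whole table are 44.3% and 40.2% of theirs. Srsf10 went from 5.20 to 4.16 at 3 months and from 5.24 to 4.26 at 12 months. Lsm11, the U7 protein, went from 2.88 to 1.80 and from 3.23 to 2.35. Srsf11 went from 6.23 to 5.52 and from 6.37 to 5.78, and Rbm7, part of a complex that feeds RNA to the nuclear exosome, from 6.49 to 5.71 and from 6.24 to 5.59. Prpf4b, a kinase of the spliceosome, went from 5.0 to 4.45 and from 4.88 to 4.22. At both ages each of these 5 genes had its highest level without ATRi at 48 h, other than Lsm11 at 3 months, where it was at 0 h (3.17).

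Rbm38 and Rbm14 showed the largest steps at 3 months: Rbm38, which controls mRNA stability and is known as a p53 target, went from 3.32 to 1.72, and Rbm14 from 6.03 to 4.41. At 12 months the steps were from 3.46 to 2.93 and from 5.40 to 5.08. The only member higher by 0.5 at both ages was Rbm47 (1.9 to 2.64 and 1.79 to 2.94), known as a cofactor of RNA editing of Apob in gut and liver. The hnRNP genes differed from the rest by their medians: -0.02 at 3 months and 0.15 at 12 months, with 12 of 15 above their 48 h level at 12 months. Of all genes 39.9% were above theirs at 12 months. At 3 months, however, 4 of 15 were lower by 0.5 or more (26.7%), close to the 27.6% of all members, and 0 were higher. Past 0.5 at 3 months only were Srsf6 (0.64 to 1.69, and 0.52 to 0.65 at 12 months), which is near the lowest values of the tables, Rbm33 (2.41 to 3.18, and 2.69 to 2.97) and Snrpd3 (1.98 to 2.70, and 2.21 to 1.98).

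Compared with 0 h, with which the 48 h groups were also compared, 14 members were lower by 0.5 or more at 72 h at 3 months (14.3%), against 13% of all genes, and 5 were higher (5.1%), against 8.53%. At 12 months 8 were lower (8.2%) and 6 higher (6.1%), against 10.2% of all genes in each direction. With differences centred on their median over all genes, 9 (3 months) and 5 (12 months) were lower. The Lsm genes had the lowest medians of the roles (-0.28 and -0.34), and 11 of 12 were below 0 h at each age (8 of 12 with centred differences). Of all genes 39.3% (3 months) and 39.9% (12 months) were above 0 h. Lsm11 went from 3.17 to 1.80 at 3 months and from 3.07 to 2.35 at 12 months. Lsm5, near the lowest values of the tables, went from 1.12 to 0.71 and from 1.15 to 0.36. Srsf5 went from 2.63 to 1.70 and from 2.33 to 1.64. At 12 months 13 of 15 hnRNP genes were above 0 h (median 0.22), and at 3 months 6 were (median -0.09). Kupffer cell and macrophage markers were higher by 0.5 in 6 of 9 at 12 months and in 3 of 9 at 3 months; their part was not tested.

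Between the ages before PH, all 15 hnRNP genes were lower at 12 than at 3 months at 0 h (median -0.19, against -0.05 for all genes, of which 38.4% were above 0). With differences centred on their median over all genes, 13 were lower and 2 higher. The largest differences were in Hnrnpa3 (2.94 at 3 months, 2.29 at 12 months), Hnrnpa2b1 (2.81, 2.21) and Hnrnph1 (6.42, 5.91), and the smallest in Hnrnpll (4.25 at both ages). Of all 98 members, 8 were lower by 0.5 or more (8.2%), against 4.84% of all genes, and 3 were higher (3.1%), against 4.76%; with centred differences 4 were lower and 5 higher. Besides the 3 hnRNP genes, the lower ones were Lsm2 (-0.78), Prpf40b (-0.59), Prpf8 (-0.55), Rbm25 (-0.54) and Prpf4b (-0.51), and the higher ones Rbm43 (0.67), Lsm1 (0.55), a subunit of the ring that promotes mRNA decay, and Rbm38 (0.55). Kupffer cell and macrophage markers were higher at 12 months at 0 h in 9 of 9 measured genes (median 0.58, summed level 8.60 against 7.83), as were 7 of 8 neutrophil markers (5.56 against 3.70); their part in these differences was not tested.

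At 48 h no member was higher by 0.5 at 12 months, against 4.34% of all genes, and 5 were lower (5.1%), against 3.87%: Rbm14 (-0.62), Snrpa--BC024978 (-0.60), Lsm5 (-0.58), Lsm10 (-0.54) and Hnrnpu (-0.53). At 72 h 6 were higher (6.1%), against 8.23% of all genes: Rbm38 (1.21), Rbm42 (0.81), Rbm14 (0.67), Rbm43 (0.65), Rbm12b2 (0.57) and Lsm11 (0.55). Lower at 72 h were 3 (3.1%), against 6.65%: Srsf6 (-1.04), Snrpd3 (-0.72) and Snrpb2 (-0.62). At 72 h all 9 Kupffer cell and macrophage markers were again higher at 12 months (median 0.94); their part was not tested.

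ATRi at 48 h and at 3 months showed few differences among the members. At 48 h in 12-month mice 1 member was higher by 0.5 or more, Rbm43 (2.95 without and 3.46 with ATRi), against 3.72% of all genes, and 1 was lower, Rbm3 (6.06 and 5.49), against 2.6%. At 72 h in 3-month mice 4 were higher (4.1%), against 1.52% of all genes, and 1 was lower (1.0%), against 1.8%. The higher ones were Srsf5 (1.70 without and 2.33 with ATRi), Srsf11 (5.52 and 6.09), Lsm11 (1.80 and 2.33) and Rbm38 (1.72 and 2.23). The lower one was Srsf6 (1.69 and 0.53), whose untreated 72 h mean was the high value described above.

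In 12-month mice at 72 h the differences with ATRi were wider, among the members as among all genes. The deposited means were higher by 0.5 or more in 24 members (24.5%), against 20.6% of all genes, and lower in 4 (4.1%), against 7.82%. With the mean of the 4 single livers in place of the deposited mean, 9 were lower. The median was 0.16 over the members and 0.08 over all genes. The higher members included 11 of 31 Rbm, 5 of 15 hnRNP, 3 of 8 Sm and snRNP, 2 of 10 SR and 1 each of the U2, Prpf and Lsm genes. The lower ones were Rbm38 (2.93 without and 1.98 with ATRi), Lsm11 (2.35 and 1.43), Rbm4b (4.37 and 3.64) and Sf3b5 (1.25 and 0.73), a small subunit of the U2 particle. Neutrophil markers were higher by 0.5 in 5 of 8 (median 0.53, none past the test below) and Kupffer cell and macrophage markers in 0 of 9 (median -0.28); their part was not tested.

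For this comparison the 4 livers gave a test: limma fitted over all genes, with the untreated group entering as 1 deposited mean. By this test 10 members rose (all genes 9.67%) and 1 fell (all genes 3.04%) at an adjusted p under 0.05. All 4 livers were above the untreated mean in 36 members, or below it in 21; for all genes this was 34.7% and 25.8%. The calls depend on single livers, among the members as among all genes. Without M545, M547 or M548 no member passed (0 in both directions), and of all 11119 genes 0, 0 and 1 did. Without M546 19 members rose and 5 fell (all genes 2127 and 684). With the untreated mean weighted as 1 mouse no member passed either, and 0 of all genes did. At an unadjusted p under 0.05 were 34 members (34.7%, against 34.6% of all genes). With differences centred on their median over all genes 5 members rose and 2 fell (all genes 594 and 423). With each library's values centred on their median, which shifts this difference by -0.22 in the median gene, 4 rose and 5 fell (all genes 472 and 1160).

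Rbm47 had the largest rise (chr5:66016549-66173118, minus strand, GENCODE M21). Its levels were 4.54, 3.33, 4.25 and 4.97 in livers M545 to M548, all above the untreated 12-month mean of 2.94, which in turn was above the 3-month means of 2.64 without and 2.30 with ATRi. The deposited means differed by 1.66 ± 0.37 (SE, limma adjusted p = 0.042, 0.0108 to 0.349 over 10 alternatives). Hnrnpa2b1, a nuclear RNA-binding protein of the A/B family (chr6:51460932-51469894, minus strand), was at 3.28, 3.34, 3.72 and 4.45 in the livers, against 2.50 without ATRi and between 2.13 and 2.81 in the other 7 groups. Its difference was 1.53 ± 0.30 (SE, limma adjusted p = 0.0394, 0.0244 to 0.349 over 10 alternatives). In both genes every liver lay above every group mean other than that of its own group.

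Rbm6 and Rbm5, which also passed, are regulators of the same protein family and neighbours on chromosome 9. Rbm6 (chr9:107773559-107873237, minus strand) was at 3.29, 2.48, 2.92 and 3.02 in the livers against 1.97 without ATRi, a difference of 1.23 ± 0.23 (SE, limma adjusted p = 0.0387, 0.0121 to 0.349 over 10 alternatives). Rbm5 was at 5.20, 5.09, 4.86 and 5.05 against 4.57, a smaller difference (0.71) than in most of the members that rose. Rbm10, the third of this family, was at 3.99, 3.87, 3.14 and 3.65 against 3.11 and did not pass the test. Hnrnpc, which binds uridine tracts and shields introns, was at 4.35, 3.45, 3.93 and 3.93 against 3.21.

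Rbm4 rose as well, from 4.12 to 5.10, 4.70, 4.80 and 4.79 in the livers (0.92 ± 0.17 SE, limma adjusted p = 0.0391, 0.0208 to 0.349 over 10 alternatives), while its near neighbour and close copy Rbm4b on chromosome 19 was at 3.2, 4.03, 3.46 and 2.93 against 4.37 and did not pass. How reads shared by such copies were counted is not given in the sources used here, and the same holds for Rbm12b2 (0.75), whose copy Rbm12b1 had 0.44 and did not pass. The other members that rose were Rbm26 (0.82), Rbm33 (0.70) and Snrpb (0.53), the last one near the lowest level of the tables, at 0.95 to 1.14 in the livers against 0.42. Rbm5, Rbm12b2, Rbm26, Rbm33 and Hnrnpc lost their call with the livers as deposited, with each library centred and with differences centred. Rbm47 and Hnrnpa2b1 lost theirs with the livers as deposited, and Snrpb with each library centred. Rbm6 and Rbm4 kept theirs in each of these settings. Without the trend and robust settings of limma, Snrpb, Rbm47 and Hnrnpc lost theirs.

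Lsm11 was the member that fell (chr11:45928269-45944935, minus strand). Its livers were at 1.06, 1.66, 1.33 and 1.27, all below the untreated mean of 2.35 and below each of the other 8 group means, of which the lowest was 1.80. The difference was -0.92 ± 0.17 (SE, limma adjusted p = 0.0382, 0.0117 to 0.349 over 10 alternatives). At 3 months the difference between the means with and without ATRi was 0.53, in the other direction. Its partner Lsm10 was at 4.40, 3.32, 3.88 and 4.31 against 3.13 and did not pass.

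Hnrnpa0 had a large difference of means (1.39) but did not pass. Its livers were spread widely, from 1.68 in M546 over 2.77 and 2.85 to 3.81 in M548, against 1.52 without ATRi. M546 was the lowest of the 4 livers also in Rbm47, Rbm6, Hnrnpc, Snrpd3 and Srsf6. It was the highest in other members, such as Sf3a3 and Prpf3. Its median deviation from the mean of the 4 livers over all members was the highest (0.078, against -0.04 to 0.033). In this liver the summed hepatocyte markers were the highest of the 4 (16.54, against 15.78 to 16.07) and the summed cell division markers were too (8.53, against 7.80 to 8.39); their part was not tested.

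**Figure D3:**
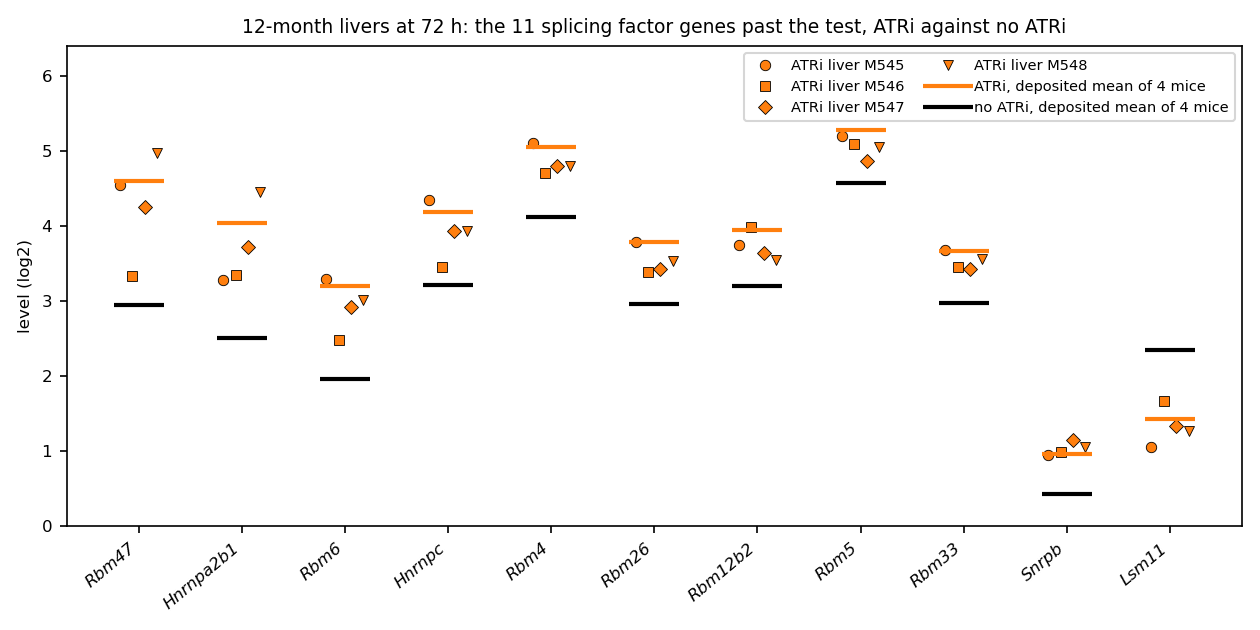
Level (log2, vertical axis) of the 11 splicing factor genes past the test in 12-month livers at 72 h (horizontal axis, ordered by the difference); orange symbols are the 4 single livers with ATRi, orange bars their deposited mean and black bars the deposited mean of 4 mice without ATRi. All 4 livers lie above the black bar in 10 genes and below it in Lsm11; M546 is the lowest of the 4 in Rbm47 (3.33) and Rbm6 (2.48).

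Promoter stretches are shown for 3 of the members that rose, together with Rbm47, to set sequences beside these values. CCAAT was present in 18 of the 31 windows (58.1%) of members higher by 0.5 or more with ATRi at 72 h in 12-month mice, TGACGT in 22.6% and CCGGAAG in 9.7%, against 45.2%, 17.3% and 25% over the windows of all members. Of the other motifs searched, E2F sites were present in 12.9% against 7.7% and E-boxes in 9.7% against 9.6%. Sp1 sites were present in 12.9% against 17.3%, and TATAAA in 16.1% against 8.7%. The stretches lie before the start of Hnrnpa2b1 (chr6:51469895-51470014, minus strand), Hnrnpc (chr14:52104029-52104148, minus strand), Rbm4 (chr19:4794010-4794129, minus strand) and Rbm47 (1 of its windows, chr5:66151959-66152078, minus strand). Capitals mark the CCAAT letters, which read ATTGG where they lie on the other strand, and the TGACGT letters. The stretch of Rbm47 holds neither. It lies inside the annotated gene (chr5:66016549-66173118), not at the outer 5′ end, for which no stretch is shown.
Hnrnpa2b1: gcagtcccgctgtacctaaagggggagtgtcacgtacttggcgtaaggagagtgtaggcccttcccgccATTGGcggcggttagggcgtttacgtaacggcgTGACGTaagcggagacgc
Hnrnpc: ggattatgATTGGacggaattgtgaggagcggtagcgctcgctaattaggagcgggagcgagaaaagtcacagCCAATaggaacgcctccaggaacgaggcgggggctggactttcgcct
Rbm4: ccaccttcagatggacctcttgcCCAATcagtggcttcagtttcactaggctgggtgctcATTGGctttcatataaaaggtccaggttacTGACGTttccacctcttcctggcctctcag
Rbm47: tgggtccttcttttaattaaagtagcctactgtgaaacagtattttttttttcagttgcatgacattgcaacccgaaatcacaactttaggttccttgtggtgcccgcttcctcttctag

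The difference between the ages was tested directly. For the ATRi effect at 72 h, 12 minus 3 months, no member passed (limma, lowest adjusted p among the members 0.0892), and 24 were at an unadjusted p under 0.05 (24.5%, against 24.7% of all genes); over all genes 1 was called in each direction. Without M546 6 members passed as higher and 3 as lower (all genes 1060 and 311). So the response of the members at 12 months is not shown to differ from that at 3 months by this test with all livers. Side by side, the deposited differences at 3 and 12 months were -0.35 and 1.66 in Rbm47, -0.08 and 1.53 in Hnrnpa2b1, -0.08 and 1.23 in Rbm6, -1.16 and 0.69 in Srsf6, 0.63 and -0.40 in Srsf5, 0.51 and -0.95 in Rbm38, and 0.53 and -0.92 in Lsm11.

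**Figure D4:**
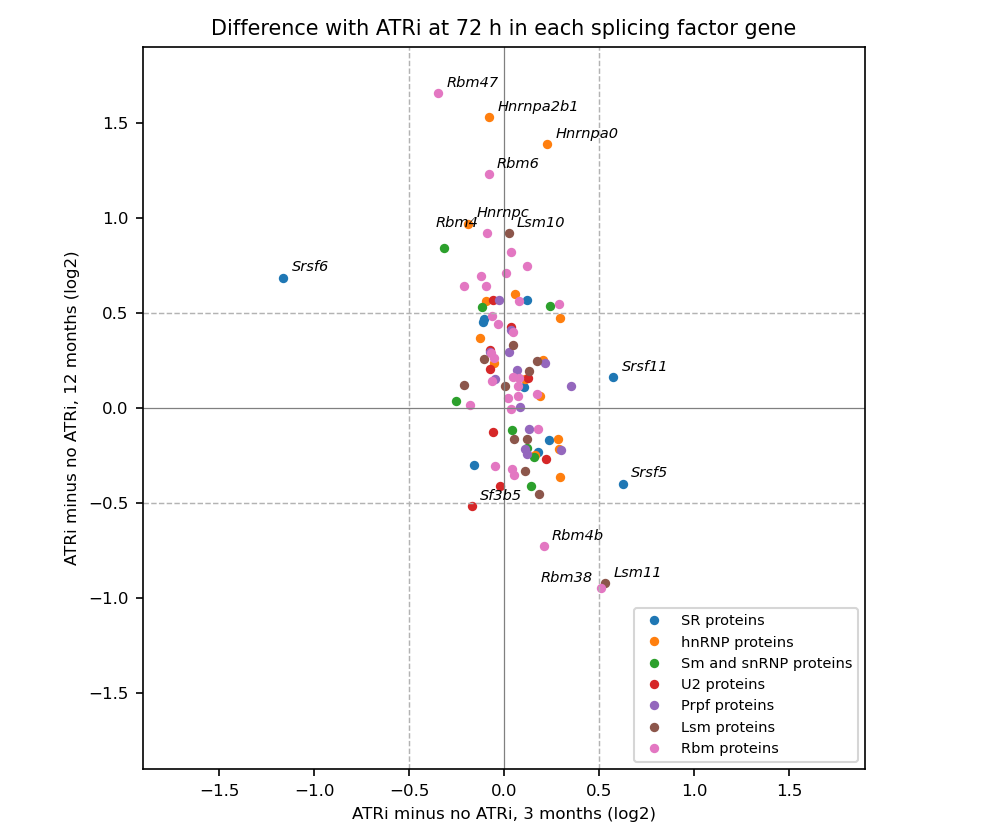
Difference of deposited mean levels with and without ATRi at 72 h (log2) at 3 months (horizontal axis) and at 12 months (vertical axis) for each of the 98 splicing factor genes, coloured by role; dashed lines mark 0.5. Most points spread along the vertical axis (Rbm47 1.66, Hnrnpa2b1 1.53) while they stay within 0.5 on the horizontal axis, other than Srsf6, Srsf5, Srsf11, Lsm11 and Rbm38.

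The 4 livers with ATRi were also tested against 3 other deposited means; all these tests share the livers, and the first also shares mice, since the same 4 animals are among the 8 in the 0 h mean. Against 0 h 27 members rose (all genes 25.6%) and 16 fell (all genes 22.9%). With the 0 h mean weighted as 1 mouse, 3 of these 43 calls were kept. In the same test cell division markers rose in 15 of 15 (median 2.70), neutrophil markers in 5 of 8 (1.5) and Kupffer cell and macrophage markers in 5 of 9 (0.46); their part was not tested. Lsm11 fell by 1.64 ± 0.15 (SE, limma adjusted p = 0.000799, 0.000451 to 0.0334 over 10 alternatives), and Rbm47 rose by 2.82 ± 0.32 (SE, adjusted p = 0.00119 by limma, 0.000909 to 0.0425). Rbm6 rose by 1.81 ± 0.20 (SE, limma adjusted p = 0.0011, 0.00105 to 0.0403). These 3 passed under each of the 10 alternatives. Of the role groups, the Lsm genes fell in 6 of 12 and rose in none: Lsm1, Lsm3, Lsm4, Lsm5, Lsm11 and Lsm14b. The hnRNP genes rose in 7 of 15 and fell in none, among them Hnrnpa0 (2.24 ± 0.38), Hnrnpa2b1 (1.82 ± 0.26), Hnrnpc (1.29 ± 0.21) and Hnrnph1 (0.49 ± 0.12). The Rbm genes rose in 12 of 31 and fell in 5. Srsf5 fell by 1.09 ± 0.14 and Snrpd3 rose by 1.56 ± 0.31. Without M545 the counts were 16 higher and 10 lower (all genes 2522 and 2052). Without M547 9 were lower (all genes 1646) and without M548 10 (all genes 1808). With each library centred 15 were higher and 28 lower (all genes 2087 and 4515). By role, 4 hnRNP genes rose without M545, M547 or M548, 3 Lsm genes fell without M547 or M548, and 8 Rbm genes rose and 2 fell without M545. Of the genes named here, Hnrnph1 lost its call without M547, Lsm3 and Lsm14b without M547 or M548, and Lsm1 without M545, M547 or M548. With each library centred the hnRNP genes rose in 3 and fell in 1, and the Rbm genes rose in 8 and fell in 8.

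Against ATRi at 48 h, 15 members rose (all genes 19.3%) and 18 fell (all genes 18.2%). With the 48 h mean weighted as 1 mouse, 6 of these 33 calls were kept. Kupffer cell and macrophage markers rose in 9 of 9 (median 1.48), neutrophil markers rose in 7 of 8 (2.46) and cell division markers fell in 8 of 15 (-1.04); their part was not tested. Lsm11 fell by 2.0 ± 0.19 (SE, limma adjusted p = 0.00214, 0.00161 to 0.0233 over 10 alternatives) and Lsm3, a subunit of the U6 ring, by 1.13 ± 0.19. Lsm8 fell by 1.16 ± 0.28. Of the 8 Sm and snRNP genes 5 fell, Snrpa1, Snrpb2, Snrpc, Snrpd1 and Snrpe, and Snrpb rose. Srsf10 fell by 0.98 ± 0.23, Hnrnph1 by 0.66 ± 0.15 and Rbm38 by 1.32 ± 0.35. Rising were Rbm47 (2.95 ± 0.40), Hnrnpa0 (2.15 ± 0.47), Hnrnpa2b1 (1.9 ± 0.33), Rbm6 (1.52 ± 0.25), Rbm33 (1.37 ± 0.19) and Rbm12b2 (1.30 ± 0.20). The number that fell was 6 without M547 and 8 without M548 (all genes 1268 and 1392). Of the 5 Sm and snRNP genes that fell, Snrpc passed without any 1 of the livers, Snrpe lost its call without M547, Snrpa1 without M547 or M548, and Snrpb2 and Snrpd1 without M545, M547 or M548. Srsf10 and Hnrnph1 lost theirs without M547, and Rbm38 without M545, M547 or M548.

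Between the ages under ATRi at 72 h, 16 members were higher at 12 months (all genes 18.6%) and 6 lower (all genes 10.6%) by the test. With the 3-month mean weighted as 1 mouse, 0 of these 22 calls were kept. By the same test Kupffer cell and macrophage markers were higher in 6 of 9 (median 1.51), neutrophil markers higher in 7 of 8 (2.97), hepatocyte markers lower in 4 and higher in 2 of 10 (-0.43) and stellate cell markers lower in 4 of 11 (-0.52); their part was not tested. The higher ones included Rbm47 (4.60 at 12 and 2.30 at 3 months), Hnrnpa2b1 (4.03 and 2.24), Rbm6 (3.2 and 1.82), Rbm12b2 (3.94 and 2.74), Lsm10 (4.04 and 2.89) and Rbm42 (5.47 and 4.47). The lower ones were Srsf5 (1.25 and 2.33), Lsm11 (1.43 and 2.33), Snrpc (1.29 and 2.11), Snrpe (2.54 and 3.22), Snrpa1 (5.17 and 5.77) and Hnrnph1 (6.4 and 7.0). Without M545 or M548 8 were higher (all genes 1547 and 1157) and without M547 6 (all genes 1105). Lower were 3 without M547 or M548 (all genes 487 and 565) and 11 without M546 (all genes 1410). With each library centred 8 were higher and 14 lower (all genes 1338 and 2464). Lsm10, Snrpe and Snrpa1 lost their call without M545, M547 or M548, and Hnrnph1 without M547 or M548.

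Genes of the machinery outside these families were read from fixed lists, which were chosen with earlier results of these data known. Of 47 other spliceosome components, 3 were higher and 1 lower by 0.5 or more with ATRi at 72 h in 12-month mice (median 0.06), against 20.6% and 7.82% of all genes. By the test 1 of them rose (all genes 9.67%) and none fell. From 48 h to 72 h 9 were lower at each age (19.1%), against 13.1% and 14.5% of all genes. Among them were Phf5a, a U2 particle protein (-0.94 at 3 and -0.78 at 12 months), and Rnpc3, a protein of the minor spliceosome (-0.98 and -0.78). Splicing regulators outside the families had a median of 0.41 with ATRi at 72 h in 12-month mice. Of these, 15 of 34 were higher by 0.5 or more (44.1%, against 20.6% of all genes) and none lower. By the test 9 rose (all genes 9.67%) and none fell, with the largest differences in Mbnl2 (1.87), Rbms1 (1.41), Tra2b (1.36) and Tial1 (1.19). Without M545, M547 or M548, or with the untreated mean weighted as 1 mouse, no gene of the whole table rose by this test. Genes of snRNP assembly were below their 48 h level at 72 h in 15 of 15 at both ages (medians -0.33 and -0.35; 14 of 15 at 12 months with centred differences), while 48.4% and 39.9% of all genes were above theirs. Among them Coil, the marker protein of Cajal bodies, differed by -0.91 and -0.81 and Ddx20, of the SMN complex, by -0.68 and -0.72. Of 6 SR protein kinases 3 were higher with ATRi at 72 h in 12-month mice, Dyrk1a (1.45), Srpk1 (0.68) and Kmt2e--Srpk2 (0.64), and 1 rose by the test.

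Gene length moved with several of these differences, in either direction. Across the members Spearman's rho between gene length (GENCODE M21) and the difference with ATRi at 72 h in 12-month mice was 0.28, and across the 10901 matched genes 0.41. For 72 h against 48 h at 3 months it was 0.43 among the members and 0.28 among all genes, and at 12 months 0.12 and 0.20. For 12 against 3 months at 48 h it was 0.40 among the members and 0.09 among all genes. In other comparisons rho was negative, as for 48 h against 0 h at 3 months (-0.31 among the members, -0.13 among all genes). For 12 against 3 months at 0 h it was -0.29 and -0.19, and for ATRi at 48 h in 12-month mice -0.28 and -0.12. These are descriptions over genes, which share libraries and are not replicates. Rbm47, Rbm6 and Rbm33 are long genes (156570, 99679 and 102119 bp), Hnrnpa2b1 and Rbm4 are short ones (8963 and 9609 bp); the part of length in the differences was not tested.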

How the data were processed

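Polyadenylated RNA of mouse liver was sequenced in 40 samples, and the authors deposited 12 tables of levels in log2 of a value named sigma, per the labels beside each value. The build is GRCm38 (mm10), per the submitters' processing notes; aligner, counting, scaling, filters and the making of the group means are not given in the sources used here, and no further normalization was applied. The members and lists were chosen with earlier results of these data known. The rule for naming took 8 members from each end of every comparison, the widest ranges of each role and every member past a test, and up to 4 genes of each of the 14 fixed lists. Single genes outside this rule were chosen after their values were seen.

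For the 4 tests, the 4 livers were moved gene by gene so that their mean equalled the deposited mean of their group, since the median difference between the 2 was 0.088. The other group entered as a single value whose weight was its number of mice, so the spread of the 4 livers is assumed to hold in it. The printed p-values rest on this weight, and most calls were lost when it was set to 1 mouse. limma 3.58.1 (R 4.3.3; trend and robust empirical Bayes, two-sided) was fitted over 11119 genes with Benjamini-Hochberg adjustment at 0.05. It was tried on simulated data for ATRi against untreated at 72 h in 12-month mice (11119 genes, of which 200 were changed, 3 runs). There it recovered 0% of differences of 0.5, 29.2% of 1 and 85% of 2, where 25 of 535 calls were false. In the data many more genes were called (1075 higher and 338 lower), so these rates need not hold for them. The simulated untreated mean was drawn with the assumed weight and spread, and genes were drawn independently. The simulation therefore cannot check these assumptions. The test of the ATRi effect between ages and the centring of differences in the tests were added after seeing the data. The livers come from separate mice. Gene positions are from GENCODE M21 (98 of 98 members matched). Entries that name a splicing gene second (Rufy2--Hnrnph3, Ccdc38--Snrpf and Phykpl--Hnrnpab) were not counted as members. One member entry is not reported here by name.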

Additional observations from a re-analysis of the deposited data

Results flagged for a closer look

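In the 12-month ATRi group at 72 h, 1 of the 4 livers lay far from the other 3 in 4 of the 98 members; at this critical value chance would set apart about 5% of such groups. In each case it was liver M546. It was the highest of the 4 in Rbm28 (3.92), Hnrnpl (7.29) and Hnrnph1 (6.69), and the lowest in Rbm14 (5.16). The other 3 livers were at 3.52 to 3.58 in Rbm28, 6.83 to 6.84 in Hnrnpl, 6.39 to 6.43 in Hnrnph1 and 5.67 to 5.75 in Rbm14. None of the 4 genes passed the test of ATRi against no ATRi.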

How the results depend on the processing

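No paired analysis was possible because the 0 h tables hold only means, although some mice were sampled at both times. Requiring a difference of 1 left at 48 h against 0 h 3 (3 months) and 1 (12 months) members higher and 0 lower, at 72 h against 0 h 2 and 1 higher and 1 and 0 lower, and at 72 h against 48 h 1 and 1 higher and 6 and 1 lower. For 12 against 3 months it left 0 at 0 h and 48 h and 1 in each direction at 72 h, and for ATRi 0 at 48 h, 0 higher at 3 months, and 4 higher and 0 lower at 12 months. Centring the differences on their median gave 9 (3 months) and 5 (12 months) members lower at 72 h than at 0 h, 5 higher from 48 h to 72 h at 12 months, and 5 higher and 4 lower at 12 than at 3 months at 0 h. Genes with a mean level of 1 or more gave 1 lower at 48 h at 12 months and 0 lower with ATRi at 3 months. The mean of the 4 livers in place of the deposited mean gave 9 members lower with ATRi at 12 months.

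Of the limma tests, that of ATRi against untreated gave 3 members higher with the livers as deposited, 0 in both directions with the other mean weighted as 1 mouse, 4 higher and 5 lower with each library centred, 5 and 2 with differences centred, and 0 to 19 higher and 0 to 5 lower without 1 liver; by the unadjusted p 34 members were under 0.05 with all livers. The weight of 1 mouse also gave 2 higher and 1 lower against 0 h, 5 and 1 against ATRi at 48 h, and 0 and 0 between the ages under ATRi. Each library centred gave 15 and 28 against 0 h and 8 and 14 between the ages. With the livers as deposited 10 were lower between the ages. Without 1 liver it was 16 to 26 higher and 9 to 16 lower against 0 h, 10 to 14 and 6 to 22 against ATRi at 48 h, and 6 to 18 and 3 to 11 between the ages. The ATRi effect between ages gave 0 to 6 higher and 0 to 3 lower without 1 liver, and 1 lower with each library centred. No member past a limma test changed direction under its alternatives, and none past 0.5 did when the differences were centred. Depth is unknown and limits what the low genes can show.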

Other observations

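Some members of the spliceosome core not described above also passed a test in the 12-month livers with ATRi at 72 h (limma, fitted over all genes). Sf3b1, the largest subunit of the U2 particle, was at 6.12, 5.84, 5.97 and 5.90 in the 4 livers, above the 0 h mean of 5.44 (0.57 ± 0.12 SE). Srsf4, an SR protein, was at 5.18, 5.50, 5.20 and 5.39, above the 0 h mean of 4.60 (0.71 ± 0.14 SE). Prpf4, a protein of the U4/U6 particle, was at 2.63, 2.97, 2.74 and 2.65, below the 0 h mean of 3.46 (-0.58 ± 0.16 SE) and below the mean with ATRi at 48 h of 3.71 (-0.82 ± 0.20 SE). Prpf4 lost its call against 0 h without M545, M547 or M548, and against ATRi at 48 h without M547 or M548. With the other mean weighted as 1 mouse none of these calls held.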
